A study of Equus caballus with 37 samples.

Results

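RPL23A encodes a protein of the large ribosomal subunit, and its transcript is described here in the blood of Arabian horses before and during race training. It is 1 of the 26991 genes in the count table, where it stands under the Ensembl identifier ENSECAG00000002201, and it was found there by that identifier alone. The count table carries no gene names. The symbol comes from the study, which gave RPL23A as the orthologue of this otherwise unnamed equine gene. The gene was listed there among those changed between T1 and T2. The T1:T2 call and count ratios below are thus not independent evidence of a change. The other pairs with T1 or T2 reuse libraries of that selection.

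Blood was drawn from the jugular vein in 4 periods, and 37 libraries were sequenced. T0 comprised 6 untrained horses (2 mares and 4 stallions, of which 5 were 2.5 years old and 1 was 3 years old), sampled in October. The trained horses were 3 years old. Their March samples followed the slow canter phase (T1, 5 mares and 7 stallions), their May samples the intense gallop phase (T2, 4 mares and 7 stallions), and their October samples closed the racing season (T3, 4 mares and 4 stallions). All horses were kept at 1 stud, and blood was taken at rest, before the day's training. The trained horses were resampled from period to period. The study states that some untrained horses did not enter training, so others may recur among the trained horses. It also removed samples of horses excluded from training, for reasons such as lameness or poor metabolic performance. No label identifies the animal. The periods were therefore treated as independent of each other, and p-values measure the spread between these libraries. The training phase and the time of year cannot be told apart between T1, T2 and T3. T0 differed from T1 and T2 in training, in month and, for 5 of its 6 horses, in age, and these cannot be told apart either. T0 and T3 shared the month but differed in training and, for the same 5 horses, in age.

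The protein of RPL23A lies on the large subunit beside the exit of the tunnel through which the growing polypeptide leaves the ribosome. The signal recognition particle and other factors that meet nascent chains dock at this site. Transcripts of ribosomal protein genes begin with a tract of pyrimidines through which the mTOR pathway controls their translation, and they are abundant in white blood cells. Ribosomal protein genes also have many processed copies in mammalian genomes, and the study's estimate of counts divides reads that fit several copies, so the count of RPL23A is uncertain to the extent that such copies share its reads. The library kit marks no strand, so reads of an antisense transcript would have been counted too.

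Between 3810631 and 14932603 counts were assigned to genes per library (median 10611594). Libraries were scaled with TMM factors, which set the totals so that most genes do not differ between libraries. The factor was under 0.8 in 5 libraries of T1 (replicates 1, 2, 3, 4 and 11, of which 4 were from mares) and in no library of another period. Comparisons of RPL23A with T1 are therefore given with and without those 5 libraries. The study's sequencing statistics also list a lower share of uniquely mapped reads for some samples of T1 than for most others. In the order of that list, the lowest shares of T1 stand at positions 1, 2, 3, 4 and 11, like the 5 replicates above. Positions 4 and 11 of T2 were also low, the former below position 4 of T1. T2 replicates 4 and 11 had TMM factors of 1.21 and 1.06. No label ties the listed samples to libraries. The list does follow the period order of the deposited samples, with 1 sample of T0 directly after T1. In that order the lowest share, at position 11 of T1, falls on the library with the fewest counts. Positions 1, 2, 3 and 4 of T1 shared 1 sequencing pool and position 11 was in another, and T0 was in only 2 of 4 pools. The part of mapping and of pools in the results was not tested. The markers chosen for neutrophils, lymphocytes, monocytes, erythroid cells and platelets could not be checked, because the reference pairs no symbol with the identifiers of the counts. In whole blood, fewer cells of a type and less RNA per cell cannot be told apart.

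RPL23A was detected in every library, with 1129 to 7611 counts. Counting error at these depths was 2.98% of the lowest count and 1.15% of the highest, well under the spread between libraries of a period. Ordered by its count, RPL23A ranked between 288 and 1555 among the genes of a library. It held a mean of 0.0276% (T0), 0.0392% (T1), 0.0333% (T2) and 0.0205% (T3) of all counts.

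The level of RPL23A was highest in T1, followed by T2, T0 and T3. In T0 it ranged from 139.6 to 313 CPM (counts per 1000000 of the TMM-scaled library total), with a median of 228 and a mean of 231 ± 57.6 (SD, n = 6). In T1 it ranged from 204 to 969 CPM, with a median of 565 and a mean of 539 ± 236 (SD, n = 12). In T2 the range was 209 to 427 CPM, the median 302 and the mean 308 ± 70.2 (SD, n = 11). The October samples of trained horses (T3) were lowest, with 115 to 245 CPM, a median of 175 and a mean of 178 ± 35.8 (SD, n = 8). The libraries of T1 were spread most widely, with a coefficient of variation of 43.8% against 24.9% in T0, 22.8% in T2 and 20.1% in T3. Within T1, replicates 7, 10 and 12 had 229.5, 254 and 204 CPM, inside the range of T0, and replicate 2 had the highest value of the series. No library of T0 or T3 stood apart from its group by Dixon's criterion, and groups of over 10 libraries were not examined in this way.

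**Figure D1:**
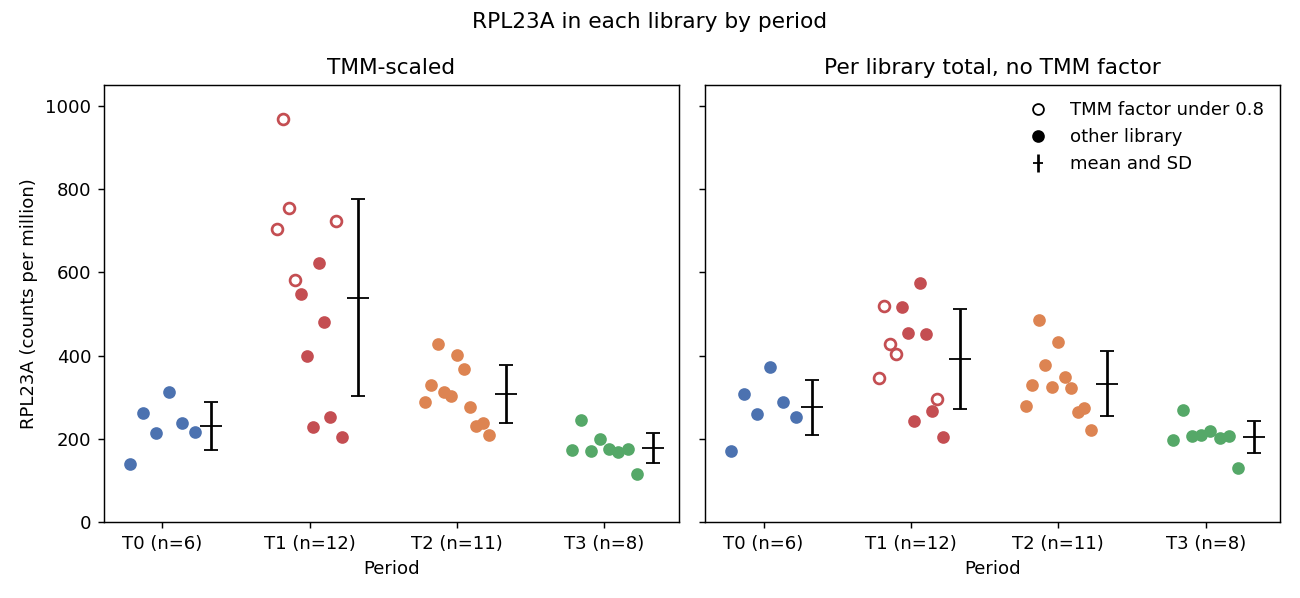
RPL23A in each library of T0 (n = 6), T1 (n = 12), T2 (n = 11) and T3 (n = 8), in CPM of the TMM-scaled total (left) or of the plain library total (right); each point is a library, open points are the 5 libraries of T1 with a TMM factor under 0.8, and bars give the mean and SD. With TMM scaling the open points lie between 581 and 969 CPM, in the upper part of T1, whereas without the factor they lie between 296 and 520 CPM, among the other libraries of T1.

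The training phases T1 and T2 were compared first, as the step from conditioning to intense gallop. RPL23A fell from T1 to T2 by 0.79 on the log2 scale (SE 0.22, 95% interval -1.25 to -0.33, adjusted p = 0.012 in edgeR), a level 1.73-fold higher in T1. All 11 libraries of T2 were below the median of T1, and 8 of 12 libraries of T1 were above every library of T2, although the groups overlapped. Of all 11188 genes tested, 20.8% were called lower in T2, and 12.7% had a lower log2 fold change than RPL23A. The call depended on the 5 libraries with low TMM factors. Without them the log2 fold change was -0.34 (SE 0.21, adjusted p = 0.46), and in that fit edgeR called 0 of 11456 genes while 1444 had an unadjusted p under 0.05. With plain library totals the RPL23A change was -0.24 (adjusted p = 0.23).

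From T2 to T3, between the gallop phase and the end of the season, RPL23A fell further. The change was -0.81 on the log2 scale (SE 0.14, 95% interval -1.11 to -0.51, adjusted p = 0.00031), 1.75-fold higher in T2. Every library of T3 was below the median of T2, and 7 of 8 were below its lowest library, with replicate 2 of T3 (245 CPM) as the exception. Lower expression in T3 was called for 21.5% of 11599 genes, and 2.43% of genes had a lower log2 fold change than RPL23A. This comparison contains no library with a TMM factor under 0.8, and with plain library totals the change was -0.70 (adjusted p = 0.00075).

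From T1 to T3, between the canter phase and the end of the season, RPL23A fell by 1.58 on the log2 scale (SE 0.26, 95% interval -2.13 to -1.04, adjusted p = 4.2e-05), a level 3.00-fold higher in T1. All 8 libraries of T3 were below the median of T1. Of the T1 libraries, 10 of 12 were above the highest of T3, and replicates 7 and 12 were not. Among 11471 genes, 32.0% were called lower in T3 and 7.77% had a lower log2 fold change. Without the 5 libraries with low TMM factors the change was -1.15 (SE 0.23, adjusted p = 0.00032). With plain library totals it was -0.94 (adjusted p = 0.00034), and thus smaller but still differentially expressed.

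Compared with untrained horses, RPL23A was 2.30-fold higher in T1 (log2 fold change 1.20, SE 0.31, 95% interval 0.56 to 1.84, adjusted p = 0.0031 in edgeR). Of the T1 libraries, 11 of 12 were above the median of T0 and 9 were above its highest library. Higher expression in T1 was called for 28.9% of 11544 genes, and 86.9% of genes had a lower log2 fold change than RPL23A. Without the 5 libraries with low TMM factors the change was 0.80 (SE 0.26, adjusted p = 0.017). With plain library totals it was 0.51 (adjusted p = 0.057 in edgeR), which did not pass the threshold.

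The difference between T2 and T0 was small. RPL23A was 1.36-fold higher in T2 (log2 fold change 0.44, SE 0.17, 95% interval 0.09 to 0.80, adjusted p = 0.046). The groups overlapped widely, with 10 of 11 libraries of T2 above the median of T0 but only 4 above its highest library. In this pair 17.0% of 11662 genes were called higher in T2, and 80.9% had a lower log2 fold change. The adjusted p lay close to the threshold and rose above it when any of T0 replicates 1, 3, 5 and 6 or T2 replicates 1, 2, 3, 4, 5, 6 and 7 was left out. With plain library totals the change was 0.27 (adjusted p = 0.20), and the call was lost in 7 of 12 alternative fits.

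Between T0 and T3, both sampled in October, RPL23A did not pass the threshold. The log2 fold change was -0.38 (SE 0.16, 95% interval -0.73 to -0.03, adjusted p = 0.10). The T3 libraries lay below the median of T0 in 7 of 8 cases, and the lowest value of the series was replicate 8 of T3 (115 CPM). Of 11696 genes, 9.21% were called lower in T3, and 14.1% had a lower log2 fold change than RPL23A. The call was decided by single libraries, since the change was -0.49 (adjusted p = 0.021) without T0 replicate 1 and -0.46 (adjusted p = 0.043) without T3 replicate 2. In the order of the levels, T1 and T2 thus differed with all libraries but were not shown to differ without those of low TMM factor, T2 and T0 differed at the edge of the threshold, and T0 and T3 were not shown to differ.

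**Figure D2:**
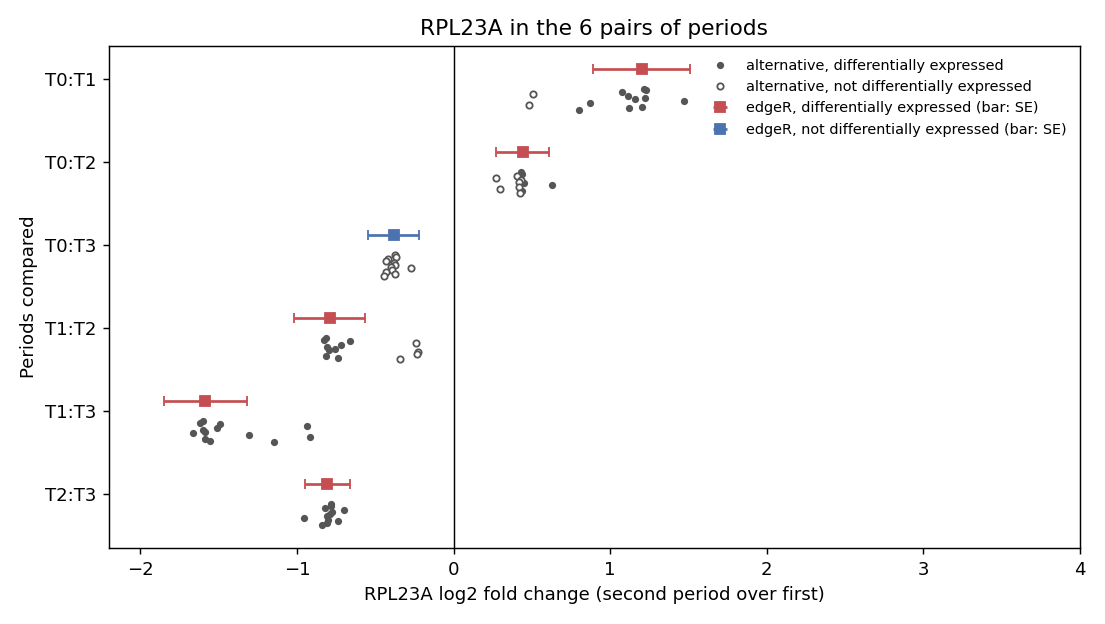
Log2 fold change of RPL23A (second period over first) in the 6 pairs of periods; squares with bars give the edgeR value and its SE, red where differentially expressed and blue where not, and points give the alternative scalings, models and sets of libraries, filled where RPL23A remained differentially expressed. In T1:T3 and T2:T3 all alternatives are filled, in T0:T3 none is, and in T1:T2 4 open points lie between -0.34 and -0.23.

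The choice of scaling moved the other genes together with RPL23A. With TMM factors the median log2 fold change of all genes tested was between -0.05 and 0.06 in the 6 pairs. With plain library totals it was -0.56 in T0:T1, -0.13 in T0:T2, 0.43 in T1:T2 and 0.50 in T1:T3. Relative to that median, RPL23A was higher in T1 than in T0 by 1.25 with TMM factors and by 1.07 with totals. Relative to it, the T1:T2 difference was -0.85 with TMM factors and -0.67 with totals, and the T1:T3 difference was -1.63 and -1.44. A scaling factor shifts all genes of a library alike, so a difference from the median of all genes can change little with it, whereas the fold change of RPL23A itself depended on the factor. The balance of calls moved as well. In T1:T2, 2326 of 3584 called genes were lower in T2 with TMM factors, against 607 of 1754 with totals. In T0:T1 the calls lower in T1 were 3368 of 6708 with TMM factors and 4494 of 5914 with totals. In T0:T2 the calls lower in T2 were 1921 of 3900 and 2713 of 3560. For T3, lower calls were 3675 of 7452 and 1803 of 6677 in T1:T3, and 2496 of 5107 and 1624 of 4642 in T2:T3.

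RPL23A was then related to the TMM factor of the library within each period. In T1 the relation was negative, with Pearson's r of -0.76 (permutation p = 0.0050, adjusted over the 4 periods 0.020, n = 12) and Spearman's rho of -0.87 (permutation p = 0.00049, adjusted 0.0020), both on log2 values and two-sided. Without replicates 1 and 11, whose factors were farthest from the median, r was -0.78 (permutation p = 0.0087, adjusted 0.035, n = 10). The factor is part of the denominator of TMM-scaled CPM, so the measures related are not independent. Over all 9329 genes compared, with the same scaling, the median r in T1 was 0.26. With CPM of the plain library total, which does not contain the factor, r in T1 was -0.10 (permutation p = 0.75, adjusted 0.96) and rho -0.17 (permutation p = 0.58). The 5 libraries of T1 with a factor under 0.8 and the other 7 differed in TMM-scaled CPM, with means of 746 ± 141 (SD, n = 5) and 391 ± 167 (SD, n = 7). In CPM of the plain total the means were 399 ± 84.8 (SD, n = 5) and 388 ± 147 (SD, n = 7), a difference smaller than the spread in either set. These sets follow the factor and are not groups of the study, and no test was made between them.

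In the other periods no relation with the factor passed the threshold. In T0 Pearson's r was -0.67 (exact permutation p = 0.14, adjusted 0.28, n = 6) and Spearman's rho -0.60 (exact permutation p = 0.24, adjusted 0.44). In T2 r was -0.21 (permutation p = 0.54, adjusted 0.58, n = 11) and rho -0.24 (permutation p = 0.48, adjusted 0.48). In T3 r was -0.25 (exact permutation p = 0.58, adjusted 0.58, n = 8) and rho -0.40 (exact permutation p = 0.33, adjusted 0.44). Without the 2 libraries farthest from the median factor of the period, r was -0.57 in T0 (n = 4), -0.11 in T2 (n = 9) and -0.19 in T3 (n = 6). The factors themselves spanned 0.410 to 1.14 in T1 but only 1.17 to 1.24 in T0, 0.949 to 1.21 in T2 and 1.05 to 1.25 in T3, so these periods hold little range to relate. RPL23A was not extreme among all genes compared with the factor. In T1 25.8% of genes had a lower r with the factor, and the share was 12.1% in T0, 44.8% in T2 and 40.1% in T3.

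**Figure D3:**
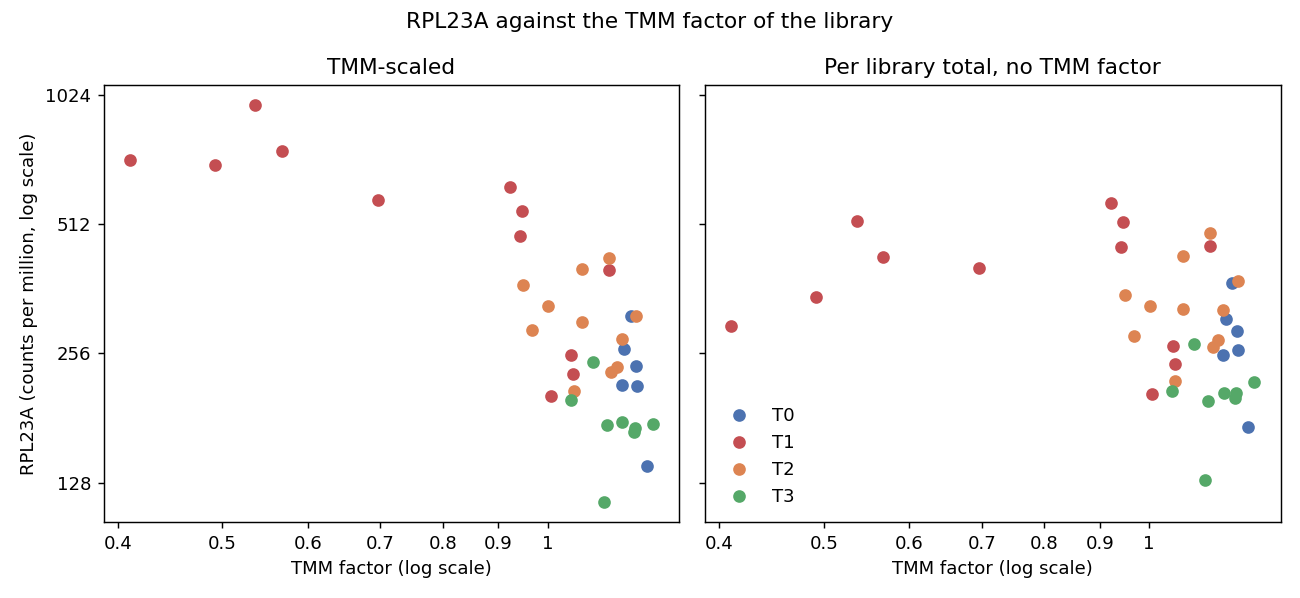
RPL23A in each of the 37 libraries against the TMM factor of that library, both on log scales, in CPM of the TMM-scaled total (left) and of the plain library total (right), coloured by period. In the left panel the T1 libraries descend from 969 CPM at low factors to 204 CPM at a factor of 1.01; in the right panel the T1 libraries show no such slope (r = -0.10).

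A ratio of 2 counts from the same library does not depend on any scaling factor. RPL23A was therefore divided by the counts of SDHA and GAPDH, the genes the study used as references in its qPCR. SDHA, a subunit of succinate dehydrogenase, had mean TMM-scaled levels between 191 and 203 CPM in the 4 periods and was differentially expressed in no pair. GAPDH, a glycolytic enzyme, had means of 1164 CPM (T0), 1681 CPM (T1), 1417 CPM (T2) and 1259 CPM (T3) and was itself called in T0:T1 (log2 fold change 0.51, adjusted p = 0.025) and T1:T3 (-0.41, adjusted p = 0.042).

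The count ratio of RPL23A to SDHA had a mean ± SD of 1.15 ± 0.33 for T0 (n = 6) and 2.96 ± 1.53 for T1 (n = 12). For T2 it was 1.57 ± 0.48 (n = 11) and for T3 0.889 ± 0.19 (n = 8). The lowest ratio was 0.573 in T3 and the highest 5.35 in T1. Because the 2 transcripts differ in length, these ratios compare periods and not the abundance of the genes. On the log2 scale the ratio was higher in T1 than in T0 by 1.21 (two-sided exact permutation p = 0.0058, adjusted over the 6 pairs 0.012). It was lower in T2 than in T1, with a difference of -0.77 (permutation p = 0.014, adjusted 0.021), and lower in T3 than in T2, with a difference of -0.80 (exact permutation p = 0.00042, adjusted 0.0013). From T1 to T3 the difference was -1.56 (exact permutation p = 0.00025, adjusted 0.0013), and 11 of 12 libraries of T1 exceeded all of T3. The differences of 0.44 in T0:T2 (exact permutation p = 0.061, adjusted 0.073) and -0.36 in T0:T3 (exact permutation p = 0.098, adjusted 0.098) did not pass the threshold. In the 5 libraries of T1 with low TMM factors the ratio was 3.05 to 5.35, against 0.963 to 2.88 in the other 7, so the sets did not overlap. SDHA itself moved with the factor. Its CPM of the plain library total was 55.4 to 133 in those 5 libraries and 179 to 232 in the other 7, and its TMM-scaled level had an r of 0.43 with the log2 factor within periods, against -0.60 for GAPDH. Without those 5 libraries the difference was 0.66 in T0:T1 (exact permutation p = 0.051, adjusted 0.091), -0.22 in T1:T2 (permutation p = 0.37, adjusted 0.37) and -1.02 in T1:T3 (exact permutation p = 0.0014, adjusted 0.0042).

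Relative to GAPDH the differences were smaller in the pairs other than T0:T3. The mean count ratio ± SD was 0.198 ± 0.044 for T0 (n = 6) and 0.315 ± 0.11 for T1 (n = 12). It was 0.227 ± 0.077 for T2 (n = 11) and 0.146 ± 0.037 for T3 (n = 8), the same order of periods. The falls from T1 to T3 (log2 difference -1.06, exact permutation p = 0.00044, adjusted 0.0026) and from T2 to T3 (-0.61, exact permutation p = 0.0087, adjusted 0.026) passed the threshold. The latter was lost without T3 replicate 4, 7 or 8, with adjusted exact permutation p-values between 0.052 and 0.055. The differences in T0:T1 (0.61, exact permutation p = 0.028, adjusted 0.055), T0:T3 (-0.45, exact permutation p = 0.037, adjusted 0.055), T1:T2 (-0.45, permutation p = 0.053, adjusted 0.064) and T0:T2 (0.16, exact permutation p = 0.49, adjusted 0.49) did not. With 1 library left out T0:T1 passed it without T0 replicate 4 or T1 replicate 7, 10 or 12, T1:T2 without T1 replicate 7, 10 or 12 or T2 replicate 3 or 6, and T0:T3 without T0 replicate 1 or T3 replicate 2 or 5. Without the 5 libraries with low TMM factors the difference was 0.38 in T0:T1 (exact permutation p = 0.18, adjusted 0.27), -0.22 in T1:T2 (permutation p = 0.38, adjusted 0.46) and -0.83 in T1:T3 (exact permutation p = 0.0095, adjusted 0.028).

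**Figure D4:**
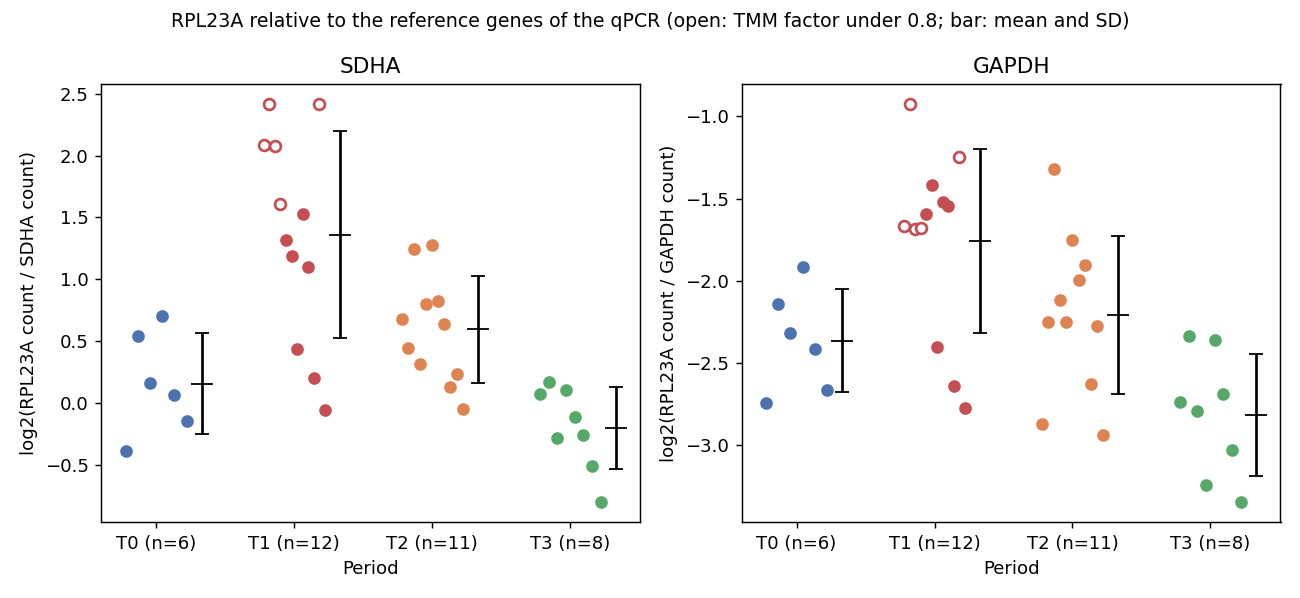
Log2 ratio of the RPL23A count to the SDHA count (left) and to the GAPDH count (right) in each library of the 4 periods; open points are the 5 libraries of T1 with a TMM factor under 0.8, and bars give the mean and SD. With SDHA the open points lie above all other libraries of the series, between 1.61 and 2.42; with GAPDH 3 of them lie among the other libraries of T1.

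Mares and stallions were compared because their share differs between the libraries of T1 with low factors and the rest. In T1, RPL23A was 649 ± 114 CPM in mares (SD, n = 5, range 481 to 755) and 461 ± 276 CPM in stallions (SD, n = 7, range 204 to 969), so the range of the stallions enclosed that of the mares. The medians in T1 were 704 CPM in mares and 399 CPM in stallions. In CPM of the plain library total, without the factor, they were 405 and 454, so mares were not higher. In T2 the means were 308 CPM in both sexes, with SDs of 82.8 (n = 4) and 69.2 (n = 7). In T3 they were 179.5 ± 13.5 (SD, n = 4) in mares and 177 ± 53.0 (SD, n = 4) in stallions. The 2 mares of T0 had 262 and 313 CPM, above all 4 stallions, whose mean was 202 ± 43.3 (SD, n = 4). The difference between periods was not shown to depend on sex (edgeR, 3 interaction terms, adjusted p = 0.72 over 12025 genes). With period as a term, stallions minus mares was -0.25 on the log2 scale (SE 0.15, adjusted p = 0.36).

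The genes most like RPL23A were sought among the 9328 genes that averaged 50 counts or more per library, by the correlation of log2 CPM over the 37 libraries after the mean of each period had been subtracted. These correlations are descriptions, since the libraries of a period share the spread of TMM factors, and RPL23A itself had an r of -0.65 with the log2 factor by this measure. The highest r was 0.81, for ENSECAG00000002368, followed by 0.80 for ENSECAG00000020465. No gene reached 0.9. The lowest values were -0.74 for ENSECAG00000025083 and -0.72 for ENSECAG00000012866, which were lowest in T1, with means of 9.39 and 4.86 CPM. SDHA, with an r of -0.21, ranked 5214 and GAPDH, with 0.42, ranked 2407. The factor moved with these genes too, with an r of -0.85 for ENSECAG00000002368, -0.84 for ENSECAG00000020465, 0.84 for ENSECAG00000025083 and 0.68 for ENSECAG00000012866, and its part in the likeness was not tested.

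ENSECAG00000002368 is the other gene that the study's supplement classes as a ribosomal protein, under the name LOC100059314. That supplement lists genes the study found changed between training periods, so the calls of ENSECAG00000002368 below are not independent evidence of a change. Its counts were low, between 16 and 177 per library. Its mean ± SD was 1.92 ± 0.37 CPM for T0 (n = 6) and 16.2 ± 13.2 CPM for T1 (n = 12). It was 3.83 ± 1.46 CPM for T2 (n = 11) and 1.84 ± 0.54 CPM for T3 (n = 8). T1 ranged from 3.74 to 41.6 CPM and lay above all libraries of T0 and of T3. Within periods the r with RPL23A was 0.87 in T1 and 0.92 in T2 but 0.37 in T0 and 0.39 in T3.

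This second gene had larger fold changes than RPL23A in all pairs but T0:T3. Its log2 fold change was 3.00 in T0:T1 (SE 0.55, adjusted p = 0.00033), -2.02 in T1:T2 (SE 0.40, adjusted p = 0.0066) and -3.07 in T1:T3 (SE 0.48, adjusted p = 2.2e-05). It was 1.01 in T0:T2 (SE 0.26, adjusted p = 0.0070) and -1.07 in T2:T3 (SE 0.24, adjusted p = 0.0014), and -0.08 in T0:T3 (SE 0.22, adjusted p = 0.82). The count of RPL23A per count of ENSECAG00000002368 was lowest in T1, at a mean ± SD of 46.3 ± 20.8 (n = 12). It was 122 ± 35.4 for T0 (n = 6), 86.8 ± 21.8 for T2 (n = 11) and 103 ± 32.4 for T3 (n = 8), and the difference between the genes was not tested. In the 5 libraries of T1 with low TMM factors ENSECAG00000002368 was at 23.1 to 41.6 CPM, against 3.74 to 9.86 CPM in the other 7. Without those 5 libraries its T1:T2 change was -0.72 and no longer called, whereas T0:T1 (1.75) and T1:T3 (-1.80) remained called. With the log2 TMM factor as a term its calls in T1:T2 (-0.59, adjusted p = 0.82) and T0:T2 (0.61, adjusted p = 0.54) were also lost.

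**Figure D5:**
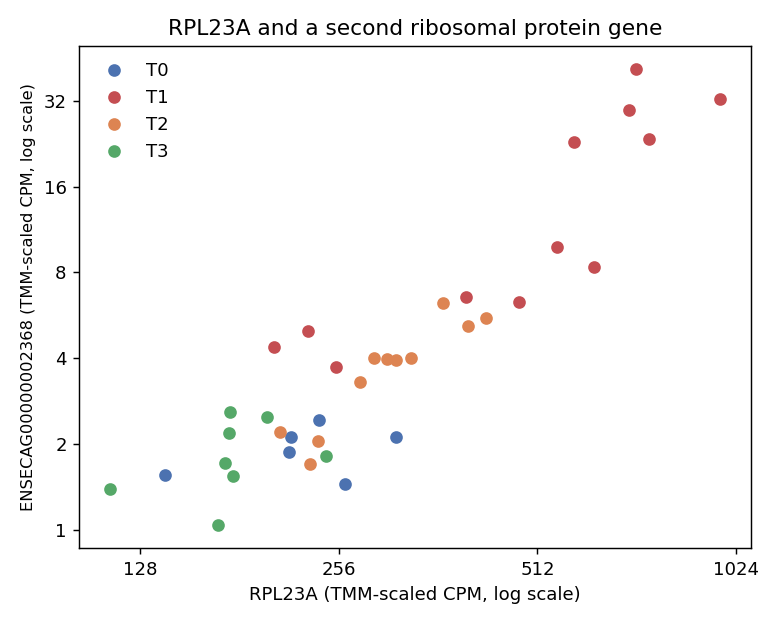
TMM-scaled CPM of ENSECAG00000002368 against that of RPL23A in the 37 libraries, both on log scales and coloured by period. The T1 libraries reach 41.6 CPM on the vertical axis and 969 CPM on the horizontal axis, and the libraries of T0 and T3 lie together at the lower left, with ENSECAG00000002368 at 2.59 CPM or less.

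ENSECAG00000020465, for which no name was at hand, followed the same order of periods. Its mean ± SD was 71.3 ± 8.45 CPM for T0 (n = 6), 135 ± 51.5 CPM for T1 (n = 12), 87.2 ± 14.7 CPM for T2 (n = 11) and 58.4 ± 7.09 CPM for T3 (n = 8). Within periods its r with RPL23A was 0.86 in T1, 0.70 in T0, 0.93 in T3 and 0.53 in T2. The other ribosomal protein genes and the partners of the exit tunnel could not be described, because none of the 111 symbols chosen for ribosome, tunnel and blood cell lists could be paired with an identifier of the counts.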

How the data were processed

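Blood RNA of 37 samples was prepared with a poly(A)-selecting TruSeq kit and sequenced in single-end reads. The authors filtered the reads, aligned them with STAR to EquCab2 and used RSEM with an Ensembl annotation to estimate the expected count of each gene. The deposited table of 26991 genes holds these expected counts as whole numbers, without normalization. The authors' 3 smaller tables, with 7885 genes each, differ for RPL23A by 1 count in 1 library at most.

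Periods were taken from the labels. The tests were run with edgeR 4.0.16 under R 4.3.3 (filterByExpr, TMM factors, quasi-likelihood F-test on the libraries of the 2 periods compared, Benjamini-Hochberg adjustment over all genes tested). Differentially expressed means an adjusted p below 0.05 and a change of at least 1.3-fold. SEs were obtained from the log2 fold change and its F value. The fits were tested on simulated data. The simulated libraries differed in total but had no spread of TMM factors like that of T1, so the effect of low factors was not tested. The study's pairs are T1:T2, T2:T3 and T0:T3. The other 3 complete the set.

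CPM used TMM factors set over all 37 libraries. Relations with the factor and count ratios were tested by exact permutation or, where enumeration was too long, by 100000 permutations, two-sided. Likeness used log2 CPM with a prior count of 2. The genes named were RPL23A, the qPCR references, the second gene the study classes as a ribosomal protein, and the 2 genes most and the 2 least like RPL23A. RPL23A, the lists and the alternatives (including DESeq2 1.42.0 and sva 3.50.0) were chosen with earlier results of these data known. Replicate numbers were not used as pairs, apart from 1 alternative fit with the number as a block. In T1:T2, 5 of 11 same-numbered samples differ in sex, and in no pair of periods did every correlation exceed 0.1. Coordinates, promoter and protein sequences were not used here.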

Additional observations from a re-analysis of the deposited data

How the results depend on the processing

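RPL23A kept its direction in all 6 pairs of periods under all 75 alternative fits and in all 111 fits with 1 library left out. Its status, called or not called, was unchanged in 62 and 98 of these. Of the unchanged fits, 12 and 12 were of T0:T3, where RPL23A was not called. In T1:T3 (alternatives -1.67 to -0.92) and T2:T3 (-0.95 to -0.70) the call held throughout. In T0:T1 it was lost with plain library totals (0.51) and with the log2 TMM factor as a term (0.48). In T1:T2 it was lost with totals (-0.24), the first surrogate variable (-0.23), the TMM term (-0.23) and the libraries with a TMM factor under 0.8 left out (-0.34). In T0:T2 it was lost with upper quartile factors (0.40), totals (0.27), no filter on low counts (0.43), all 37 libraries in one fit (0.42), the surrogate variable (0.42), the TMM term (0.30) and thinning (0.42), and in 11 of 17 fits with 1 library left out, where all 17 lay between 0.34 and 0.55. T0:T3 was called in 2 of 14 such fits (-0.49 and -0.46), where all 14 lay between -0.49 and -0.28. The cause was not tested. With the replicate number as a block, the log2 fold changes were 1.47, 0.63, -0.27, -0.80, -1.67 and -0.95 in T0:T1, T0:T2, T0:T3, T1:T2, T1:T3 and T2:T3, and the replicate block changed no call. The replicate number identifies no horse, so the block cannot show how the resampling of horses affected the calls. The relation with the TMM factor changed sign in T2 (0.15) and T3 (0.021) and was lost in T1 (-0.10) with CPM of the plain total, and changed sign in T0 (0.0099) with factors set within the period. In T1 it was -0.80 with RLE factors and -0.70 with factors set within the period. The ratio to SDHA lost its call without the low-factor libraries in T0:T1 (0.66) and T1:T2 (-0.22). With 1 library left out it ranged from 0.33 to 0.55 in T0:T2 and from -0.47 to -0.25 in T0:T3, passing the threshold without T2 replicate 11 or T0 replicate 4 and without T0 replicate 1, and the ratio to GAPDH from 0.53 to 0.70 in T0:T1, -0.53 to -0.36 in T0:T3, -0.54 to -0.38 in T1:T2 and -0.68 to -0.52 in T2:T3. ENSECAG00000002368 also lost its call in T0:T2 with all 37 libraries in one fit (adjusted p = 0.094) and thinning (adjusted p = 0.055), and in T1:T2 with the surrogate variable (-0.57). In T0:T3 it ranged from -0.16 to 0.016, changing sign without T3 replicate 6. With as few as 16 counts in a library, ENSECAG00000002368 is limited by depth.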
